A study of Mus musculus with 6 samples.

Results

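A set of 8 genes for surface proteins that hematopoietic stem cells (HSCs) carry, several of them in common with endothelium, was followed in stem cells of old mice that differed in surface CD61. The genes were chosen by name, with earlier results of these data known. They are Ly6a, Ly6e, Procr, Cd34, Emcn, Cd93, Eng and Thy1, which makes 8 of the 55450 genes listed for each library. All 8 were found in the counts, and all 8 passed the filter on low counts.

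The study measured RNA in bulk from long-term HSCs (LT-HSCs), the cells at the top of the blood hierarchy. Both groups came from wild-type (WT) male mice of the strain C57/Bl6 at 22 to 24 months, with no treatment named. In both groups the cells were gated as lineage-negative, positive for Sca1 and cKit, negative for CD48 and positive for CD150. CD61High stands for the 10% of these cells with the most surface CD61, and CD61Low for the 10% with the least. CD61 is integrin beta 3, a subunit of an adhesion receptor of platelets and megakaryocytes. Each library came from 5000 sorted cells, and each of 3 mice gave 1 library of either group. The titles name a single mouse for each library, whereas the sorting protocol speaks of pools of cells. Nothing else in the labels says that the animals were processed separately, so the p-values measure the spread between these libraries.

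The 8 proteins sit on the cell surface in different ways. Ly6a (Sca1, itself one of the sort markers), Ly6e and Thy1 are small proteins held by a glycosylphosphatidylinositol (GPI) lipid anchor, and Procr encodes the endothelial protein C receptor (EPCR), a transmembrane protein. Cd34 and Emcn (endomucin) are sialomucins, Cd93 is a receptor with a C-type lectin domain, and Eng (endoglin, CD105) is a co-receptor for ligands of the TGF-beta and BMP families. In mouse marrow, Sca1 and EPCR are used to enrich stem cells, absent or low CD34 marks adult long-term stem cells, and Thy1 is low on HSCs and high on T cells.

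The libraries held 21354130 to 26398090 counts on genes. Mouse 2 stood apart from the other mice in both of its libraries. Its summed level of 12 neutrophil genes was 78202 CPM (counts per 1000000, TMM-adjusted) in CD61High and 153218 CPM in CD61Low, against 237 to 19955 CPM in the libraries of mice 1 and 3. Its summed level of 12 genes that define HSCs (Hlf, Mecom, Fgd5 and others) was 2653 CPM in CD61High and 1894 CPM in CD61Low, against 4677 to 6349 CPM in the libraries of mice 1 and 3. In bulk RNA, fewer cells of a type and less RNA per cell cannot be told apart. Results are therefore given within each mouse, and with and without mouse 2 where a gene was called. Itgb3, the gene of the sorted marker, did not follow the sort: its level was 206, 140 and 226 CPM in CD61High of mice 1, 2 and 3 and 294, 129 and 336 CPM in CD61Low, a log2 difference of -0.32 (SE 0.17) with an adjusted p of 0.334 with mouse as a block. The gate is on protein and the counts are of RNA, and how the 2 relate was not tested.

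The promoters of Cd34 and Procr are shown here because, of the 3 members called below with mouse as a block, these have one in the table used. Both are from RefSeq on GRCm38.p6, cover 250 bases before to 50 bases after the annotated start, and lie on the forward strand, at chr1:194938571-194938870 and chr2:155750967-155751266. Capitals mark every match, on either strand, to the GATA letters GATAA, the ETS letters GGAAG and the AP-1 letters TGANTCA.
Cd34: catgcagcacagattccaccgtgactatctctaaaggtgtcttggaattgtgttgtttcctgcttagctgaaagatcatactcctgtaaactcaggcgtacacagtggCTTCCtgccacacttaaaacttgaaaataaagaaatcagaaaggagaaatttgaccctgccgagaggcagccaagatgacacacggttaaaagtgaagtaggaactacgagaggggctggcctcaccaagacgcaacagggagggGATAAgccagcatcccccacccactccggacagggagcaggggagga
Procr: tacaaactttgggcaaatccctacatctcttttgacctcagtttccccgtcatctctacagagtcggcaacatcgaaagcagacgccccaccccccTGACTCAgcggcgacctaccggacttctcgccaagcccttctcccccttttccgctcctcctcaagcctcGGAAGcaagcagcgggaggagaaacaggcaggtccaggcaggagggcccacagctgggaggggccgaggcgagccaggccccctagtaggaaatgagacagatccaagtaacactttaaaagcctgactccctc
The Cd34 window holds 1 match to the GATA letters and 1 to the ETS letters. The Procr window holds 1 match to the ETS letters, 1 to the AP-1 letters and 1 to the E-box letters CAGCTG, which are not in capitals. Of 32851 mouse promoters of the same length, 25.4% hold the GATA letters, 71.4% the ETS letters, 7.81% the AP-1 letters and 16.3% the E-box letters. Promoters of 4 members were in the table, and Emcn (1 GATA and 2 ETS matches) and Eng (2 ETS matches) are the other two. The RUNX letters TGTGGT, held by 16.8% of all promoters, matched in 0 of the 4. A match is a string of letters, with no measurement of binding behind it.

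Between CD61Low and CD61High, Cd34 RNA went up while Ly6a and Procr RNA went down, inside each mouse. Cd34 was 2.25-fold higher in CD61High with mouse as a block, and Ly6a and Procr were at 0.395 and 0.421 of their CD61Low levels. Ly6e, Emcn, Cd93, Eng and Thy1 did not pass the test. Differences are log2 CD61High minus CD61Low. With edgeR's quasi-likelihood test and Benjamini-Hochberg adjustment over all genes, 0 of the 8 members were called at an adjusted p under 0.05 when mouse was ignored, beside 0% of the 15610 genes tested. At an unadjusted p under 0.05, 2 of the 8 (Ly6a and Cd34) passed that fit, beside 6.55% of all genes. With mouse as a block, 3 of the 8 were called, beside 0.256% of all genes (0.0961% higher and 0.16% lower in CD61High). Because the members were chosen with earlier results of these data known, such shares describe the set and do not test it. DESeq2 without the block called 2 of the 8, Ly6a and Cd34, beside 1.54% of the genes it tested. With the block, the same 3 members were called by DESeq2 (beside 11.1% of genes), by limma voom (3.13%), with RLE factors (0.564%) and with no filter on low counts (2.5%), while 0 of the 8 were called with upper-quartile factors (0.0512%) or with library sizes alone (0%).

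**Figure D1:**
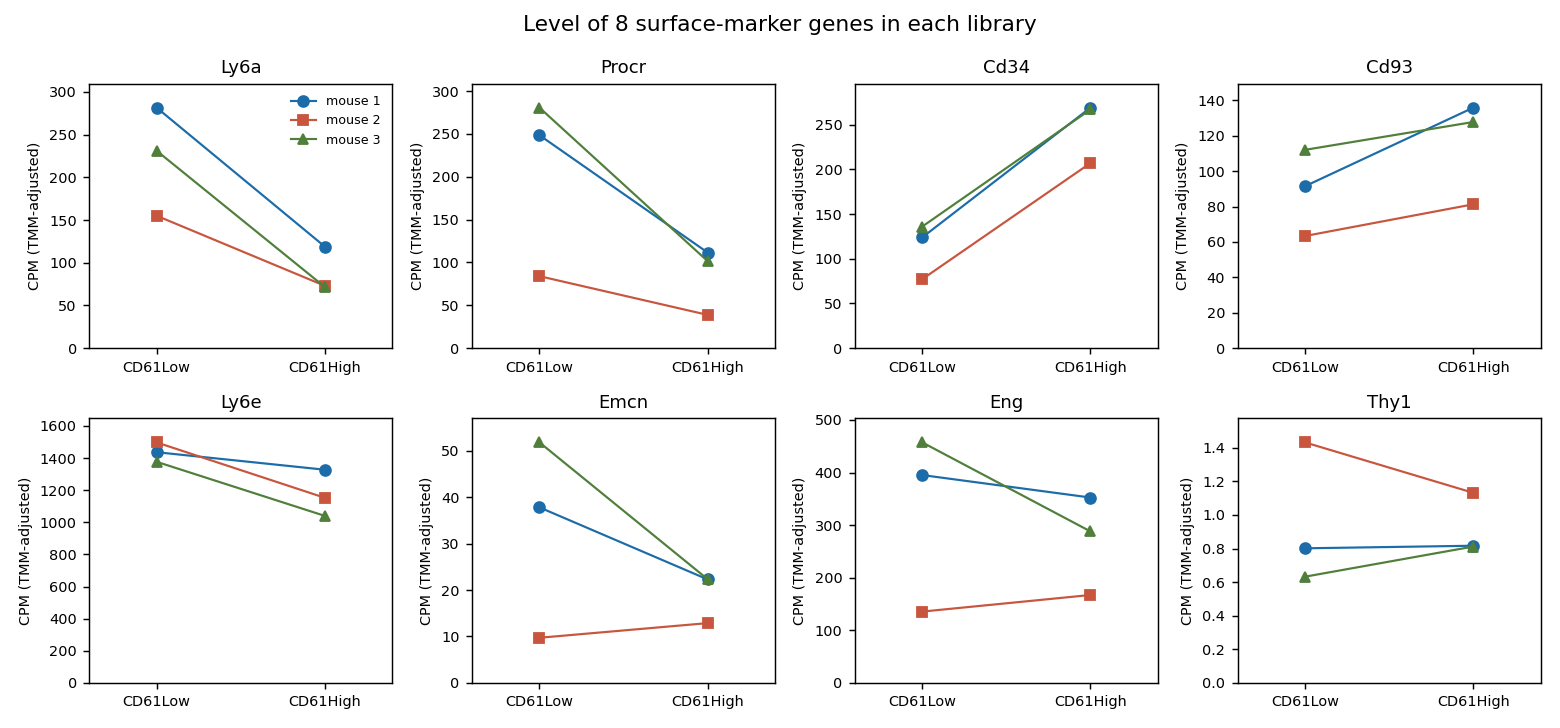
Level of each of the 8 genes (vertical axis, CPM, own scale per panel) in the 6 libraries, with CD61Low at left and CD61High at right and a line joining the libraries of 1 mouse. Ly6a and Procr slope down and Cd34 slopes up in all 3 mice, while for Emcn, Eng and Thy1 the line of mouse 2 slopes against that of mouse 3.

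Within the GPI-anchored Ly6 proteins, Ly6a (ENSMUSG00000075602.10, GRCm38 chr15:74994877-74998031, reverse strand) encodes the stem cell antigen Sca1. It was at 119, 73.0 and 71.6 CPM in CD61High of mice 1, 2 and 3, and at 282, 155 and 231 CPM in CD61Low. Every CD61High library lay below every CD61Low library, and the order among mice was the same at the top of both groups, with mouse 1 highest. The means were 87.8 ± 26.9 CPM in CD61High and 223 ± 63.7 CPM in CD61Low (SD, n = 3 each), and the within-mouse differences were -1.24, -1.09 and -1.69. With mouse as a block Ly6a fell by 1.34 on the log2 scale (SE 0.16, adjusted p = 0.0446), and without the block the difference was -1.34 (SE 0.31, adjusted p = 0.652). All 6 libraries were sorted as positive for Sca1 protein, the product of this gene.

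Ly6e (ENSMUSG00000022587.14, chr15:74955051-74959905, forward strand), a broadly expressed and interferon-inducible relative, lies 34971 bases from Ly6a. Its level was 1327, 1153 and 1039.8 CPM in CD61High of mice 1, 2 and 3, and 1436, 1497 and 1376 CPM in CD61Low. The groups did not overlap, yet the gap was small beside the level: 1173 ± 145 against 1437 ± 60.4 CPM (SD, n = 3 each). The within-mouse differences were -0.11, -0.38 and -0.40, and the blocked fit gave -0.30 (SE 0.15, adjusted p = 0.322). Without the block the difference was -0.29 (SE 0.16, adjusted p = 0.813). Ly6a reads per Ly6e read were 0.457, 0.612 and 0.410 times as many in CD61High as in CD61Low of mice 1, 2 and 3, so the neighbours did not keep their ratio.

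The same region of chromosome 15 carries other Ly6 genes, and part of them are neutrophil genes. Within 300 kb of Ly6a, 13 of 40 annotated genes were tested. Of the 12 other than Ly6a, 9 were lower in CD61High in 3 of 3 mice, beside 24.7% of all genes, and 1 was higher, beside 20.7%. The 9 include the member Ly6e and the genes Ly6c2 and Ly6g, and 0 of the 12 were called with mouse as a block. Ly6c2, found on monocytes and neutrophils, was at 36.7, 548 and 0.849 CPM in CD61High of mice 1, 2 and 3 and at 159, 1210.5 and 9.63 CPM in CD61Low. Ly6g, the neutrophil antigen, was at 10.7, 166 and 0.627 CPM in CD61High and at 47.1, 368 and 2.68 CPM in CD61Low. Both were highest in mouse 2 and lowest in mouse 3, the order of the neutrophil list. Ly6a was highest in mouse 1 in both groups, lowest in mouse 3 in CD61High and lowest in mouse 2 in CD61Low, and the part of neutrophil RNA in its counts was not tested. Ly6a transcripts share exact runs of up to 118 bases with Ly6c1, 80 with Ly6i and 52 with Ly6c2, so reads inside those runs cannot be assigned to 1 gene. Ly6g shares a run of 35 bases. Ly6c1 was at most 3.16 CPM and Ly6i at most 5.43 CPM, both in CD61Low of mouse 2, whereas Ly6c2 and Ly6g exceeded Ly6a in both libraries of mouse 2. Multimapping reads stayed out of the counts, so reads inside such runs may be missing from Ly6a. The part of Ly6a reads lost, or of reads of relatives counted for Ly6a, was not tested. Transcripts of Ly6e share no run over 15 bases with any of its relatives compared.

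Thy1 (ENSMUSG00000032011.5, chr9:44043384-44048579, forward strand), the third GPI-anchored member, had the fewest reads of the 8. It had 19, 26 and 22 reads in CD61High of mice 1, 2 and 3, and 22, 29 and 17 reads in CD61Low. That is 0.817, 1.13 and 0.812 CPM in CD61High and 0.801, 1.43 and 0.632 CPM in CD61Low, with the groups overlapping. The mean was 0.920 ± 0.183 CPM against 0.955 ± 0.421 CPM (SD, n = 3 each), and the within-mouse differences of 0.02, -0.32 and 0.32 had no common sign. The fit with mouse as a block gave 0.01 (SE 0.45, adjusted p = 0.994), and that without it -0.05 (SE 0.47, adjusted p = 0.986). With so few reads, a difference within that SE was not detectable at this depth. Mouse 2 had the highest Thy1 in each group, and its libraries also had the most Cd3e, a T-cell receptor subunit: 6.31 CPM in CD61High and 9.82 CPM in CD61Low, against 0.296 to 3.64 CPM in the other mice. The part of T cells in the Thy1 reads was not tested.

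Procr (ENSMUSG00000027611.12, chr2:155751117-155755471, forward strand) encodes EPCR, which on endothelium presents protein C for activation. Its level was 112, 38.8 and 102 CPM in CD61High of mice 1, 2 and 3, and 249, 84.0 and 281 CPM in CD61Low. Mouse 2 was lowest in both groups, and its CD61Low library lay below the CD61High libraries of mice 1 and 3, so the groups overlapped although each mouse had less in CD61High. The means of 84.0 ± 39.4 and 204 ± 106 CPM (SD, n = 3 each) therefore have wide errors, while the within-mouse differences of -1.15, -1.11 and -1.47 are close. With mouse as a block Procr fell by 1.25 on the log2 scale (SE 0.14, adjusted p = 0.0436), and without the block the difference was -1.28 (SE 0.58, adjusted p = 0.752).

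Around Procr, the protein C and thrombin pathway showed no common direction. Of 12 genes listed, 10 were tested and 0 were called with or without the block. In CD61High, 3 were higher in 3 of 3 mice, beside 20.7% of all genes, and 2 were lower, beside 24.7%. F2rl2, a protease-activated receptor, was at 6.02, 18.1 and 10.2 CPM in CD61High and 1.68, 6.86 and 3.64 CPM in CD61Low (log2 1.57, SE 0.25, adjusted p = 0.0599 with the block). Thbd (thrombomodulin, which works with EPCR to activate protein C) was at 32.7, 34.7 and 45.9 CPM in CD61High and 29.7, 19.7 and 38.2 CPM in CD61Low, with an adjusted p of 0.275. The list's median difference was 0.15 with the block, beside -0.02 over all genes tested.

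Among the sialomucins, Cd34 (ENSMUSG00000016494.9, chr1:194938819-194961279, forward strand) is the member that was higher in CD61High. Its level was 269, 207 and 267 CPM in CD61High of mice 1, 2 and 3, and 124, 77.2 and 136 CPM in CD61Low. Every CD61High library lay above every CD61Low library, and mouse 2 was lowest in both groups. The means were 248 ± 35.2 and 112 ± 31.1 CPM (SD, n = 3 each), and the within-mouse differences were 1.12, 1.42 and 0.97. Cd34 rose by 1.17 on the log2 scale with mouse as a block (SE 0.14, adjusted p = 0.047), and the fit without it gave 1.14 (SE 0.25, adjusted p = 0.652). The antisense gene Gm16897 overlaps 2.03% of the Cd34 exon sequence, and without strand its reads cannot be told apart there.

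Emcn (ENSMUSG00000054690.17, chr3:137341067-137432185, forward strand), a marker of capillary endothelium that stem cells also carry, split by mouse. Its level was 22.3, 12.9 and 22.4 CPM in CD61High of mice 1, 2 and 3, and 37.8, 9.73 and 51.8 CPM in CD61Low. Mice 1 and 3 had less in CD61High, mouse 2 had more, and the groups overlapped. The means were 19.2 ± 5.45 and 33.1 ± 21.5 CPM (SD, n = 3 each), with differences of -0.76, 0.40 and -1.21. Emcn gave -0.55 with mouse as a block (SE 0.32, adjusted p = 0.378) and -0.79 without (SE 0.60, adjusted p = 0.881). Without mouse 2 and with the block it was called, at -1.0 (SE 0.17, adjusted p = 0.0443), beside 4.77% of all genes in that fit. This left out the only mouse of the other sign, and a fit on 2 pairs leaves 1 residual degree of freedom. With the block, Emcn was not called without mouse 1 (-0.43, adjusted p = 0.815) or without mouse 3 (-0.20, adjusted p = 0.902).

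None of the other sialomucins was called: of 6 listed, 5 were tested, with a median of -0.20 with the block. In 3 of 3 mice 1 was lower in CD61High, beside 24.7% of all genes, and 0 were higher, beside 20.7%. The 1 that was lower was Cd24a, a mucin-like antigen of many blood cells, at 359, 997 and 274 CPM in CD61High and 519, 1853 and 399 CPM in CD61Low (log2 -0.66, SE 0.15, adjusted p = 0.0898). Selplg, the ligand of P-selectin, was at 201, 441 and 188 CPM in CD61High and 270.5, 687 and 152 CPM in CD61Low, with an adjusted p of 0.511. Both were highest in mouse 2.

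Cd93 (ENSMUSG00000027435.8, chr2:148436640-148443563, reverse strand), a C-type lectin-like receptor of endothelium and early blood cells, was at 136, 81.3 and 128 CPM in CD61High of mice 1, 2 and 3. In CD61Low it was at 91.6, 63.4 and 112 CPM. Each mouse had more in CD61High, by 0.57, 0.36 and 0.19, and mouse 2 was lowest in both groups, so that the groups overlapped. The means were 115 ± 29.5 and 89.0 ± 24.5 CPM (SD, n = 3 each), and the difference of 0.37 (SE 0.14) had an adjusted p of 0.200 with the block. Of its 7 relatives and binding partners 0 were called. In 3 of 3 mice 2 were higher in CD61High, beside 20.7% of all genes, and 3 were lower, beside 24.7%. The related lectin Clec14a was at 14.6, 6.83 and 14.4 CPM in CD61High and 28.5, 9.53 and 36.9 CPM in CD61Low (log2 -0.95, SE 0.23, adjusted p = 0.0943 with the block), and Msn (moesin, which links receptors to actin) had an adjusted p of 0.231.

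Eng (ENSMUSG00000026814.16, chr2:32646595-32682669, forward strand) was at 352, 167 and 288 CPM in CD61High of mice 1, 2 and 3, and at 395, 136 and 457 CPM in CD61Low. Mouse 2 was low in both groups and the only mouse with more Eng in CD61High, the pattern that Emcn also had. The means were 269 ± 94.1 and 329 ± 171 CPM (SD, n = 3 each), with differences of -0.17, 0.30 and -0.67. With mouse as a block the difference was -0.18 (SE 0.20, adjusted p = 0.648), and without it -0.29 (SE 0.50, adjusted p = 0.940). Without mouse 3 it was 0.06 with the block and -0.07 without it. The gene Fpgs overlaps 1.51% of its exon sequence.

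Of 25 genes for the receptors, ligands and SMAD proteins around endoglin, 19 were tested and 0 were called with or without the block. In CD61High, 8 were lower in 3 of 3 mice, beside 24.7% of all genes, and 1 was higher, beside 20.7%. The median over the 19 was -0.18 with the block. Bmpr1a, a type I receptor for BMPs, was at 23.7, 21.1 and 22.7 CPM in CD61High and 46.0, 33.7 and 51.2 CPM in CD61Low (log2 -0.94, SE 0.17, adjusted p = 0.0653). Tgfb1, the ligand that stem cells and megakaryocytes make, was at 215, 199 and 194 CPM in CD61High and 115, 165 and 136 CPM in CD61Low (log2 0.56, SE 0.16, adjusted p = 0.129). The groups did not overlap for Bmpr1a, below, beside 5.67% of all genes, and for Tgfb1, above, beside 8.66%. Both genes were named for their small unadjusted p, so this separation follows in part from how they were picked.

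**Figure D2:**
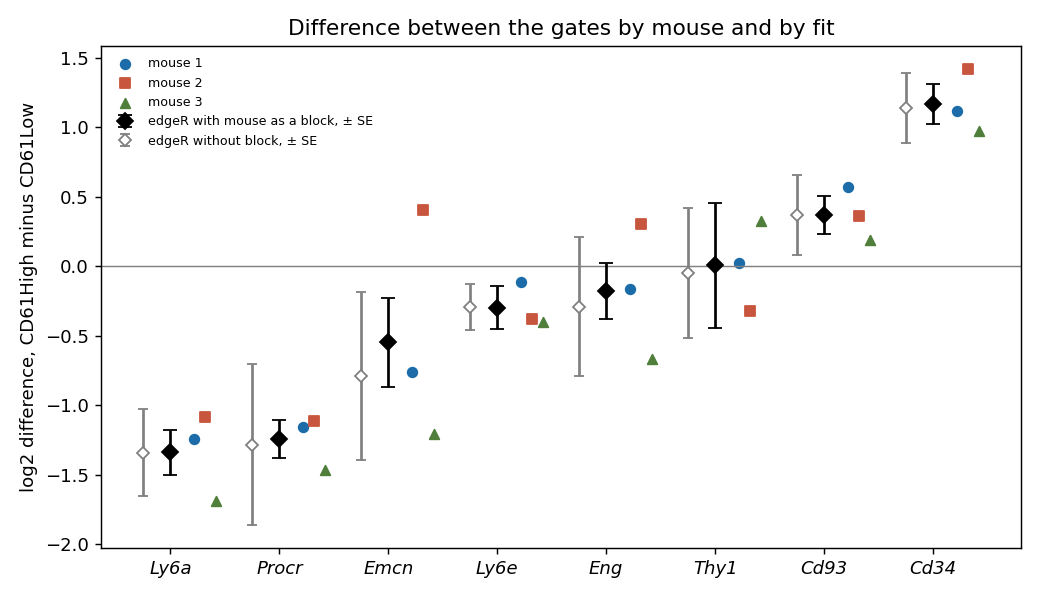
Log2 difference of CD61High minus CD61Low (vertical axis) for each of the 8 genes (horizontal axis), with a coloured point for each mouse and the fitted value with mouse as a block (filled diamonds) and without (open diamonds), bars being 1 SE. The 3 points of Cd34 lie between 0.97 and 1.42, those of Procr between -1.47 and -1.11, and those of Emcn, Eng and Thy1 lie on both sides of 0.

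Counted together, 3 of the 8 genes (Ly6a, Ly6e and Procr) were lower in CD61High in 3 of 3 mice, beside 24.7% of all genes tested, and 2 (Cd34 and Cd93) were higher, beside 20.7%. The groups did not overlap for Ly6a and Ly6e, below, beside 5.67% of all genes, and for Cd34, above, beside 8.66%. The median over the 8 was -0.24 with the block, beside -0.02 over all genes tested. An exact two-sided permutation test of 3 libraries against 3 cannot give a p under 0.1, and one over 3 pairs cannot go under 0.25. Without mouse 2, 2 of the 8 (Procr and Cd34) were called without the block, beside 0.855% of all genes, and the block fit gave -1.48 for Ly6a (adjusted p = 0.0190), -1.33 for Procr (adjusted p = 0.0189) and 1.03 for Cd34 (adjusted p = 0.0204). With the block and without mouse 1, or without mouse 3, 0 of the 8 were called, beside 0% and 0.0435% of all genes.

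Members were also read against each other in the same library. Cd34 reads per Procr read were 2.41, 5.34 and 2.63 in CD61High of mice 1, 2 and 3, and 0.499, 0.919 and 0.485 in CD61Low. In CD61High there were more Cd34 than Procr reads in each mouse and in CD61Low fewer, a 4.84-, 5.81- and 5.43-fold difference. Cd34 reads per Ly6a read were 2.26, 2.84 and 3.73 in CD61High and 0.440, 0.498 and 0.589 in CD61Low, a 5.14-, 5.70- and 6.34-fold difference. Ly6a reads per Procr read were 1.07, 1.88 and 0.705 in CD61High and 1.13, 1.85 and 0.823 in CD61Low, so each mouse kept its own ratio, the CD61High value being 0.941, 1.02 and 0.856 times the other. Eng reads per Cd34 read were 1.31, 0.807 and 1.08 in CD61High and 3.19, 1.76 and 3.36 in CD61Low. These ratios do not depend on library scaling. They were chosen after the values were seen and carry no test.

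**Figure D3:**
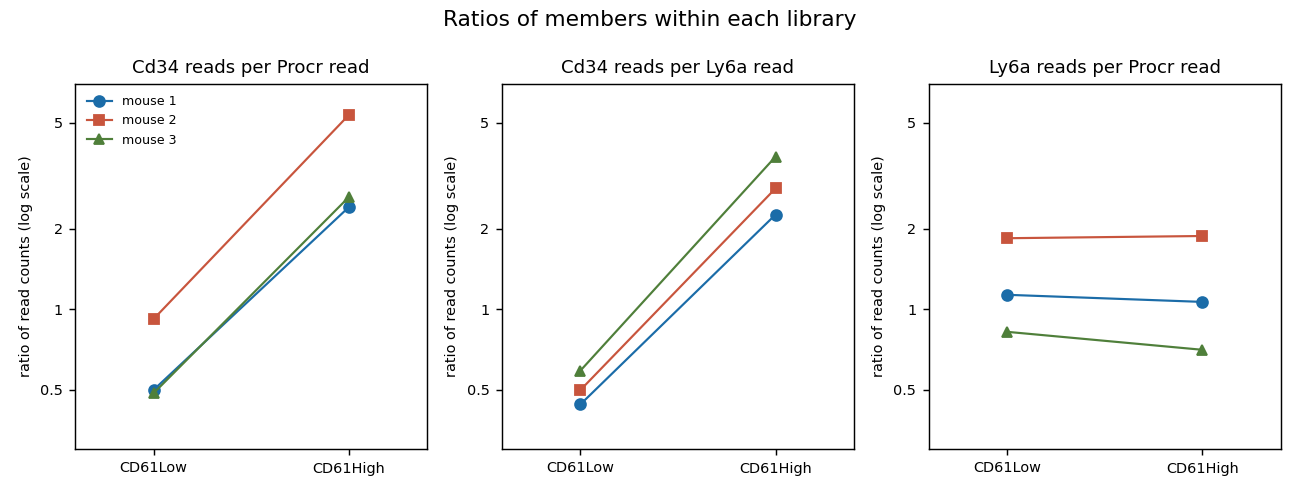
Reads of one gene per read of another in each library (vertical axis, log scale), with CD61Low at left and CD61High at right and a line for each mouse. Cd34 per Procr goes from 0.485 to 0.919 in CD61Low up to 2.41 to 5.34 in CD61High, while the lines of Ly6a per Procr are nearly level.

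The exon length used merges all annotated exons of a gene, so the order below depends in part on the annotation. Levels were compared between genes per kilobase of that length. On this scale (RPKM, the CPM divided by exon length in kilobases), the order over the 6 libraries was Ly6e (345 ± 46.3), Ly6a (129 ± 71.2), Eng (73.9 ± 31.5), Procr (71.0 ± 47.8), Cd34 (24.7 ± 11.0), Cd93 (15.3 ± 4.21), Emcn (4.84 ± 2.95) and Thy1 (0.313 ± 0.0972), each a mean ± SD, n = 6. The order held between neighbours in 6 of 6 libraries for Ly6e over Ly6a, for Cd34 over Cd93, for Cd93 over Emcn and for Emcn over Thy1. Ly6a exceeded Eng in 5 libraries and Procr exceeded Cd34 in 5. By CPM, undivided by length, the mean over the libraries was 180 for Cd34 and 144 for Procr. Eng and Procr did not differ beyond their spread, and their order turned with the group: Eng stood above Procr in the 3 CD61High libraries and Procr above Eng in the 3 CD61Low libraries. Procr averaged 41.3 ± 19.4 RPKM in CD61High and 101 ± 52.0 in CD61Low, and Eng 66.5 ± 23.2 and 81.4 ± 42.2 (SD, n = 3 each).

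The marker lists place the transcripts of the 8 genes beside those of other cells. Of the 10 genes listed as defining endothelium, Cldn5 and Kdr carried most of the summed level, which was 84.8, 47.1 and 62.8 CPM in CD61High of mice 1, 2 and 3 and 126, 76.1 and 203 CPM in CD61Low. Cdh5, the cadherin of endothelial junctions, was at 0.109 to 1.53 CPM, Sox17 was at 0 in 4 libraries and Aplnr at 0 in 3. The summed list was lower in CD61High in 3 of 3 mice, as Ly6a and Procr were. Gene by gene, 3 of its 9 tested genes were lower in 3 of 3 mice, beside 24.7% of all genes. In the other direction there were 0, beside 20.7%, and 0 were called with or without the block. Cldn5, a tight-junction protein and the list's most abundant gene, was at 44.3, 7.40 and 31.2 CPM in CD61High and 68.4, 33.7 and 147 CPM in CD61Low (log2 -1.68, SE 0.36, adjusted p = 0.0892 with the block), less in CD61High in each mouse. The part of endothelial RNA in the differences of the members was not tested. Of 21 endothelial genes that stem cells are known to express as well (Tek, Tie1, Esam and others), 20 were tested and 0 called, with 3 higher and 4 lower in CD61High in 3 of 3 mice. Icam2, an adhesion molecule, was at 101, 71.6 and 86.4 CPM in CD61High and 55.8, 41.7 and 62.3 CPM in CD61Low (log2 0.70, SE 0.14, adjusted p = 0.0769), and S1pr1, the receptor for sphingosine 1-phosphate, had an adjusted p of 0.129.

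The summed neutrophil list was lower in CD61High in 3 of 3 mice, at 4797, 78202 and 237 CPM against 19955, 153218 and 1546 CPM in CD61Low. All 12 of its genes were lower in 3 of 3 mice, beside 24.7% of all genes tested, and 0 were called with the block. In the other lists, 10 of 10 monocyte, 7 of 10 B-lineage, 6 of 10 T and NK and 9 of 10 erythroid genes tested were lower in 3 of 3 mice, as was 1 of 8 stromal genes, with 0 called. Their summed levels ran from 363 to 9369 CPM in CD61High and 503 to 17695 CPM in CD61Low for monocytes, and from 569 to 14983 and 955 to 34728 CPM for erythroid cells, highest in mouse 2 each time. They ran from 50.4 to 2983 and 62.4 to 4268 CPM for B cells, from 95.0 to 304 and 109.6 to 443 CPM for T and NK cells, and from 44.5 to 228 and 60.4 to 287 CPM for stroma. By contrast, the summed megakaryocyte and platelet list was higher in CD61High in 3 of 3 mice, at 809.6, 748 and 1019.8 CPM against 185, 237 and 299 CPM. Of its 8 tested genes, 3 were called higher with the block, beside 0.0961% of all genes. These were Itga2b (CD41, the integrin partner of CD61, adjusted p = 0.0308), Gp5 and Gp9, the last 2 being subunits of a platelet adhesion receptor. Without the block 0 of the list were called (Itga2b adjusted p = 0.652). The summed HSC-defining list was lower in CD61High in mice 1 and 3 (4677 against 5994 and 5195 against 6349 CPM) and higher in mouse 2. Of its 12 genes, 0 were called, 1 was higher in 3 of 3 mice, beside 20.7% of all genes, and 3 were lower, beside 24.7%. The part of these cells in the differences of Ly6a, Procr and Cd34 was not tested.

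**Figure D4:**
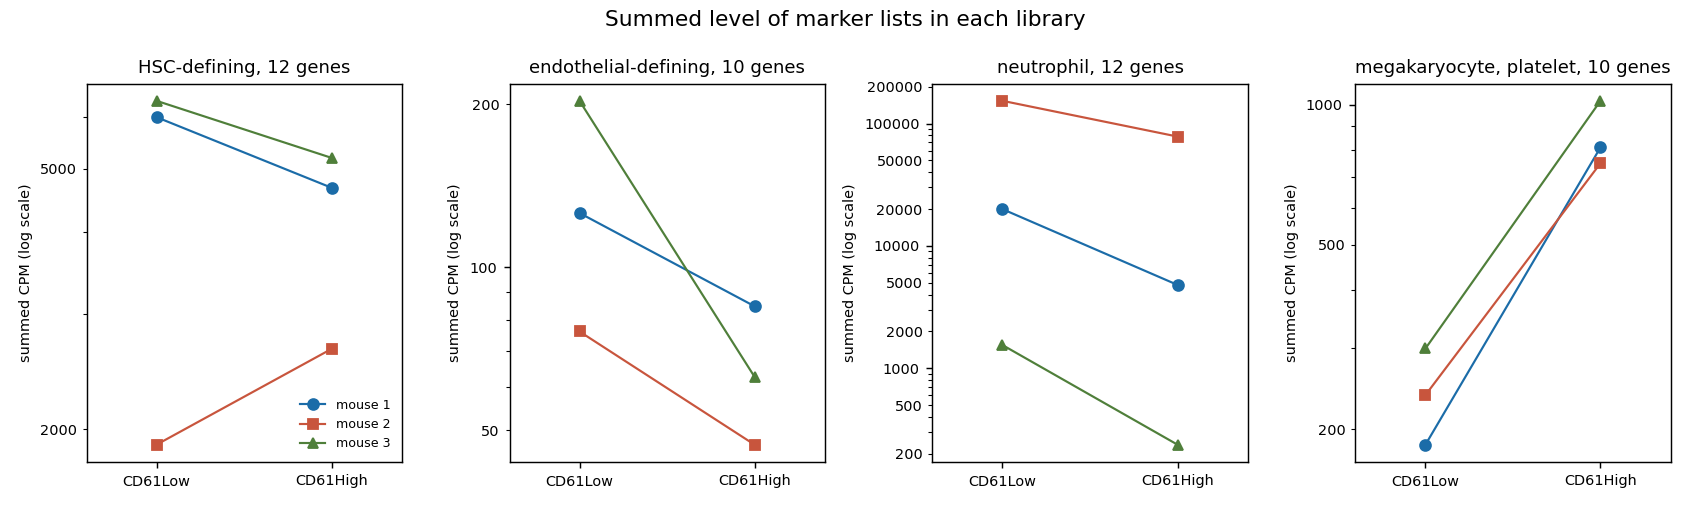
Summed CPM (vertical axis, log scale) of 4 marker lists in each library, with CD61Low at left and CD61High at right and a line for each mouse. Mouse 2 is far above the others for neutrophil genes, at 78202 and 153218 CPM, and lowest for HSC-defining genes, while megakaryocyte and platelet genes are higher in CD61High in each mouse.

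Read against the HSC-defining genes in place of all reads, the contrast of the 3 called members stayed. Per 100 reads of those 12 genes, there were 2.39, 1.46 and 1.95 Procr reads in CD61High of mice 1, 2 and 3, and 4.15, 4.43 and 4.42 in CD61Low. On this scale the Procr groups no longer overlapped, and mouse 2 no longer stood low in CD61Low. How many of all genes have groups without overlap on this scale was not counted, so such separations only describe the members. Ly6a had 2.54, 2.75 and 1.38 reads in CD61High and 4.70, 8.18 and 3.64 in CD61Low, and Cd34 had 5.75, 7.80 and 5.14 reads in CD61High and 2.07, 4.07 and 2.14 in CD61Low, neither pair of groups overlapping. Emcn had 0.477, 0.486 and 0.430 reads in CD61High and 0.631, 0.513 and 0.817 in CD61Low, so all 3 mice had less in CD61High on this scale. The groups of Ly6e, Cd93, Eng and Thy1 overlapped. Ly6e and Cd93 lost their common sign on this scale: the log2 difference of Ly6e was 0.24 in mouse 1, against -0.86 and -0.12 in mice 2 and 3. That of Cd93 was -0.13 in mouse 2, against 0.93 and 0.48 in mice 1 and 3. With libraries scaled in this way, edgeR with the block gave -1.29 for Ly6a (SE 0.38, adjusted p = 0.0206) and -1.19 for Procr (SE 0.37, adjusted p = 0.0358). It gave 1.23 for Cd34 (SE 0.38, adjusted p = 0.0323), beside 4.82% of all genes called, and without the block 0 of the 8 were called. These SEs were larger than those with TMM and the block, 0.16 for Ly6a and 0.14 for Procr and Cd34. This scaling was chosen after the data were seen.

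Other genes that share features of the 8 were taken from lists. Of 29 further genes of the Ly6 and uPAR family found, 13 were tested and 0 were called, with a median of -0.69 with the block. In 3 of 3 mice 6 were lower in CD61High, beside 24.7% of all genes, and 1 was higher, beside 20.7%. Ly6d, a lymphoid progenitor antigen, was at 9.24, 54.9 and 0.480 CPM in CD61High and 29.8, 125 and 0.669 CPM in CD61Low (log2 -1.28, SE 0.23, adjusted p = 0.0657), and Plaur, the urokinase receptor, had an adjusted p of 0.135. Both were highest in mouse 2, as the neutrophil list was. The 27 genes that build or attach the GPI anchor of Ly6a, Ly6e and Thy1 had a median of 0.12, with 0 called. Of these, 8 were higher in 3 of 3 mice, beside 20.7% of all genes, and 2 were lower, beside 24.7%. Pigu, a subunit of the enzyme that attaches the anchor, was at 98.7, 74.8 and 87.1 CPM in CD61High and 70.5, 63.1 and 66.6 CPM in CD61Low (log2 0.37, SE 0.13, adjusted p = 0.188), and Pigw, which acts in anchor synthesis, had an adjusted p of 0.263.

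Ly6a and Ly6e are known interferon-response genes. Of 24 other such genes, all 24 were tested and 0 called with or without the block, with 11 lower and 4 higher in CD61High in 3 of 3 mice and a median of -0.27 with the block. Irf1, a transcription factor of that response, was at 119, 129 and 113 CPM in CD61High and 177, 144 and 134 CPM in CD61Low (log2 -0.32, SE 0.14, adjusted p = 0.250). Ifit2, an antiviral protein, went the other way, at 40.8, 41.3 and 57.0 CPM in CD61High and 36.1, 29.9 and 33.7 CPM in CD61Low (log2 0.47, SE 0.17, adjusted p = 0.192). The list held genes of both signs, with 18 below 0 and 6 above 0 with the block, beside 8080 and 7530 of all genes. Over all genes, 24.7% were lower and 20.7% higher in 3 of 3 mice. Its summed level was 1750 to 2056 CPM in CD61High and 2167 to 2310 CPM in CD61Low, without overlap. How this list relates to Ly6a and Ly6e was not tested.

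The summed level of 13 progenitor genes was 726, 5205 and 304 CPM in CD61High of mice 1, 2 and 3 and 1649, 7966 and 589.7 CPM in CD61Low, so that in both libraries of mouse 2 it exceeded the HSC-defining sum. Mpo, a granule enzyme of myeloid progenitors, reached 2877 CPM there, and Cd48, the gene of a marker that the sort selects against, was at 59.8 and 129 CPM in CD61High and CD61Low of that mouse. The list had 9 lower in CD61High in 3 of 3 mice, beside 24.7% of all genes, and 1 higher, beside 20.7%. Its median was -1.47 with the block, with 0 called. Prtn3, a granule protease, was at 266, 521 and 156 CPM in CD61High and 355, 867 and 347 CPM in CD61Low, with an adjusted p of 0.0875. Flt3, the receptor of multipotent progenitors, was at 15.3, 29.2 and 31.7 CPM in CD61High and 15.1, 25.4 and 15.2 CPM in CD61Low, with an adjusted p of 0.367. Cd34, which progenitors also carry, was higher in CD61High in 3 of 3 mice, the direction of 1 gene of this list and against that of 9. The part of progenitor RNA in the Cd34 difference was not tested.

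Likeness of pattern was measured as the root mean square distance between log2 CPM profiles over the 6 libraries, each centred on its own mean. Among the members, Emcn and Eng were nearest, at 0.27, followed by Ly6e and Thy1 at 0.38 and by Cd34 and Cd93 at 0.42. Ly6a and Procr were 0.53 apart, and Procr and Cd34 were farthest, at 1.3. Among 10543 genes compared, those nearest to Procr were Plcl1 (0.073), Rasd1 (0.090) and Gnai1 (0.12), against a median distance of 0.98. Nearest to Ly6a were Egr1 (0.13), an immediate-early transcription factor, Sdc4 (0.15), a syndecan, and Clcf1 (0.16), a cytokine. Nearest to Cd34 were Emid1 (0.13), Accs (0.15) and Chchd6 (0.16). For Emcn these were Tox, Podnl1 and Lamb2 (0.12 to 0.13), for Eng Vdr, Ghr and Gprasp2 (0.051 to 0.059), and for Cd93 Slc25a13, Glmn and Acp6 (0.032 to 0.074). For Ly6e, whose profile is nearly flat, they were Txndc16, Anxa7 and Resf1 (0.035 to 0.054), and for Thy1 Eno1b, Bnip2 and Arl6ip1 (0.033 to 0.049). With 6 libraries and this many genes, small distances are found for any profile, and they are given as a description.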

How the data were processed

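RNA was measured in 6 libraries of LT-HSCs, 3 CD61High and 3 CD61Low, per the labels. The authors deposited raw counts of reads per gene. The submitters' processing notes name STAR 2.7, MultiQC and edgeR. The build is not given in the sources used here. All 55450 gene identifiers matched GENCODE mouse release M21 (GRCm38), which supplied symbols, positions and exon lengths. The deposited series table of 17500 genes had 0 values that differed from the library tables. The cDNA and library kits named in the labels mark no strand, the first-strand share was 49.9% to 50.0%, and unstranded counts were used. Lines that name no gene stayed out: they were unmapped (4.36% to 10.9% of a library), multimapping (10.0% to 15.6%), outside any gene (2.88% to 4.21%) or ambiguous (3.55% to 4.37%). A count of 0 allows up to 3 counts, or 0.114 to 0.140 CPM, for counting error only. Every pair of libraries differed by more than sampling noise, with a chi-square per degree of freedom of 40.6 or more.

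The test was edgeR's quasi-likelihood test (version 4.0.16, R 4.3.3; TMM, filterByExpr, two-sided, Benjamini-Hochberg over 15610 genes, called at 0.05), all 6 libraries, without a block. The titles give libraries with 1 number the same mouse. Deviations from the group means correlated at 0.236, 0.806 and 0.761 within mice 1, 2 and 3 and at -0.823 to 0.374 between mice. CD61High of mouse 1 correlated more with CD61Low of mouse 3 (0.374) than with its own CD61Low (0.236). The block therefore rests on the titles, and the fit with it is printed beside each result it changes. Alternatives used DESeq2 1.42.0, limma 3.58.1, other scalings, no filter and left-out libraries. The fits were tested on simulated data. CPM were adjusted by TMM, and log2 CPM profiles and within-mouse differences used a prior count of 2. The genes named beside the members were the 2 of each list with the smallest unadjusted p without the block and a mean of at least 5 CPM, any list gene called with the block, the most abundant gene of a cell type list, and the 3 genes nearest in pattern to each member. Genes outside that rule (Cd3e, Cdh5, Sox17, Aplnr, Kdr, Mpo, Cd48 and the genes beside Ly6a) were chosen after their values were seen. Of 267 list symbols, 264 matched. The members and lists were chosen with earlier results of these data known.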

Additional observations from a re-analysis of the deposited data

How the results depend on the processing

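With edgeR and no replicate block 0 genes and 0 members were called (1023 genes at an unadjusted p under 0.05), and limma voom without the block also called 0; with mouse as a replicate block 40 genes and 3 members were called (3242 at an unadjusted p under 0.05). DESeq2 called 230 genes and 2 members without the block, and 1566 genes and 3 members with it. With the block, RLE factors gave 88 genes, no filter on low counts 747, and, both added after seeing the data, limma voom 489 and scaling to HSC-defining reads 753, each with 3 members. That scaling moved the median log2 difference of all genes to -0.15 without the block, from -0.05. With the block, upper-quartile factors gave 8 genes and 0 members (adjusted p 0.0648 for Ly6a and Procr and 0.0665 for Cd34), and library sizes alone 0 and 0 (adjusted p 0.156 for each of these 3). With 1 library or mouse left out, and without the block, counts ranged from 0 to 133 genes and from 0 to 2 members (Procr and Cd34), the highest without mouse 2. With the block they ranged from 0 genes without mouse 1 through 7 without mouse 3 to 742 genes and 4 members (Ly6a, Procr, Cd34 and Emcn) without mouse 2; a fit on 2 pairs leaves 1 residual degree of freedom. Over 27 alternatives, the log2 difference ranged from -1.65 to -1.15 for Ly6a, -0.44 to -0.21 for Ly6e, -1.66 to -0.94 for Procr, 0.93 to 1.27 for Cd34, -1.22 to -0.20 for Emcn and 0.18 to 0.57 for Cd93, with no change of sign. Eng turned to 0.0627 without mouse 3 with the block. Thy1 changed sign from -0.05 to 0.0076 with the block, 0.0486 with limma voom, 0.081 with library sizes alone (0.0972 with the block), 0.0405 with no filter and the block, and 0.0566 with HSC-defining scaling and the block. With a library left out it ranged from -0.28 to 0.36, and with a mouse left out from -0.18 to 0.1668 without the block and -0.16 to 0.1757 with it (0.0001 without mouse 1). The causes were not tested. Thy1 had 17 to 29 reads a library, the fewest among the members.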
